A study of Mus musculus with 6 samples.

Results

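The genes examined here were the liver X receptors, a set of their target genes and the membrane proteins that move sterols in mouse pancreatic islets. They were taken by name from the deposited table of gene counts. The 10 genes were Nr1h2, Nr1h3, Abcg5, Abcg8, Abca1, Abcg1, Scarb1, Mylip, Lpcat3 and Srebf1, out of 44713 genes in the table. All 10 passed the filter on low counts, which left 12760 genes for testing.

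The liver X receptors LXRα (Nr1h3) and LXRβ (Nr1h2) are nuclear receptors that bind oxysterols, pair with the retinoid X receptor on DNA, and switch on genes that remove cholesterol from the cell. Among these targets are the transporters Abca1 and Abcg1, which load cholesterol onto lipoproteins, and the partner transporters Abcg5 and Abcg8, which form one complex that pumps sterols into bile and the gut lumen. In β cells, cholesterol that is not removed is known to disturb insulin secretion.

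Islet RNA was sequenced from male mice at 10 weeks of age, 3 of them db/db and 3 db/m. The db/db mice (BKS.Cg-Dock7m+/+Leprdb/Nju in the study's methods, genotype Lepr-/- and strain C57BL/6 in the labels) lack working leptin receptor signalling in the whole body and become obese and diabetic. The db/m mice were non-diabetic littermates, which the labels name wild type. All mice ate a normal diet and the islets went directly to RNA extraction after collagenase digestion and a density gradient. The gene counts of a library summed to between 15641797 and 20614531 reads. The db mutation changes the splicing of Lepr and does not remove the gene, so that the Lepr counts of 4, 10 and 68 in db/db mice against 37, 25 and 8 in db/m mice do not check the labels.

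The libraries held markers of islets but were mostly acinar RNA. The study itself stained isolated islets for insulin to check that they were free of acinar cells, and reported mostly positive cells. The 33 acinar genes in the table took 71.7% to 78.1% of the counts in db/db mice and 54.1% to 69.9% in db/m mice (exact permutation test, two-sided, p = 0.1, the smallest p for 3 mice against 3). Exact Clopper-Pearson 95% intervals of these shares, which cover counting error alone, were at most 0.0494 percentage points wide. Ins1 and Ins2 together took 0.121% to 0.502% in db/db mice and 0.605% to 3.75% in db/m mice, with intervals at most 0.0188 points wide. The 11 β-cell markers had a median log2 fold change of -2.78, and 4 of them were lower at an adjusted p under 0.05 (edgeR). Over all tested genes 0.486% were lower at this threshold. The summed level of the β-cell markers was 2510 to 6500 CPM in db/db mice and 7710 to 25300 CPM in db/m mice. Of the 33 acinar genes, 2 were higher and 0 lower at the same threshold, against 0.133% of all tested genes higher. Their median log2 fold change was 0.71. The part of these shifts in the results below was not tested. Some values are given with an acinar score covariate (the mean log2 level of the acinar markers in a mouse). The acinar share did not overlap between the groups, so that this fit cannot fully part acinar content from genotype. It does not cover the shift of the β-cell markers. The db/m replicate 1 library stood apart, with the lowest acinar share and the highest insulin share. In bulk RNA, fewer cells of a type cannot be told apart from less RNA of a gene per cell. Counts were scaled by the TMM method, with factors from 0.605 in db/db replicate 1 to 1.75 in db/m replicate 1, and levels are given as CPM, the count relative to the scaled library size.

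The promoter windows of the 10 genes (250 bases before to 50 bases after an annotated start, from RefSeq on GRCm38.p6) were read because the receptors bind a repeat called DR4. This motif, AGGTCA repeated in the same direction after a spacer of any 4 bases, was searched on both strands, allowing mismatches at the 12 fixed positions. Windows were found for 8 of the 10 genes, 12 windows in all, and none for Abcg1 and Scarb1. The closest matches are shown for the pair of genes that came nearest to the motif and for the shared start region of Abcg5 and Abcg8, with both repeats in capitals and the spacer in lower case:
Abca1, chr4:53159947-53159962, forward strand: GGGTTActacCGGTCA
Srebf1, chr11:60210638-60210653, forward strand: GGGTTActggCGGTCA
Abcg5 and Abcg8, chr17:84683043-84683058, reverse strand: AGGACActctGGCTAA
Abca1 and Srebf1 lie on the reverse strand, and their matches began 67 and 182 bases before the start. Both matched the motif at 9 of 12 positions, and they were equal to each other at 12 of 12 positions of the repeats and at 2 of 4 positions of the spacer. A match this close was present in 21.9% of the 32851 windows of all genes. The Srebf1 match was in 1 of its 3 windows, that of the innermost start. Abcg5 and Abcg8 shared a match at 8 of 12 positions, which 76.9% of all windows reached. Another Abcg8 window held a different match, also at 8 of 12 positions. These matches describe letters only, and no binding was measured.

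Of the 10 genes, Abcg5 and Abcg8 were higher in db/db islets at an adjusted p under 0.05, by 8.04-fold and 7.09-fold, and the other 8 did not pass this threshold (edgeR quasi-likelihood test, adjusted over all tested genes). Over all tested genes 0.619% passed it in either direction and 0.133% passed it as higher. At an unadjusted p under 0.05, 6 of the 10 genes were higher in db/db islets and 0 were lower, against 5.04% of all tested genes higher. The same number, 6 genes, had all db/db mice above all db/m mice, against 8.53% of all tested genes. These 6 were Abcg5, Abcg8, Scarb1, Mylip, Lpcat3 and Nr1h2. The median log2 fold change was 0.74 over the 10 genes and -0.001 over all tested genes. It was 0.71 over the 33 acinar markers, and a link between that shift and the one of the 10 genes was not tested. With library size alone in place of the TMM factors, the median of all tested genes was -0.59 and 0 of the 10 genes passed, although Abcg5 and Abcg8 then stood 2.89 and 2.87 above that median. The plot of CPM by mouse shows each gene in each animal.

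**Figure D1:**
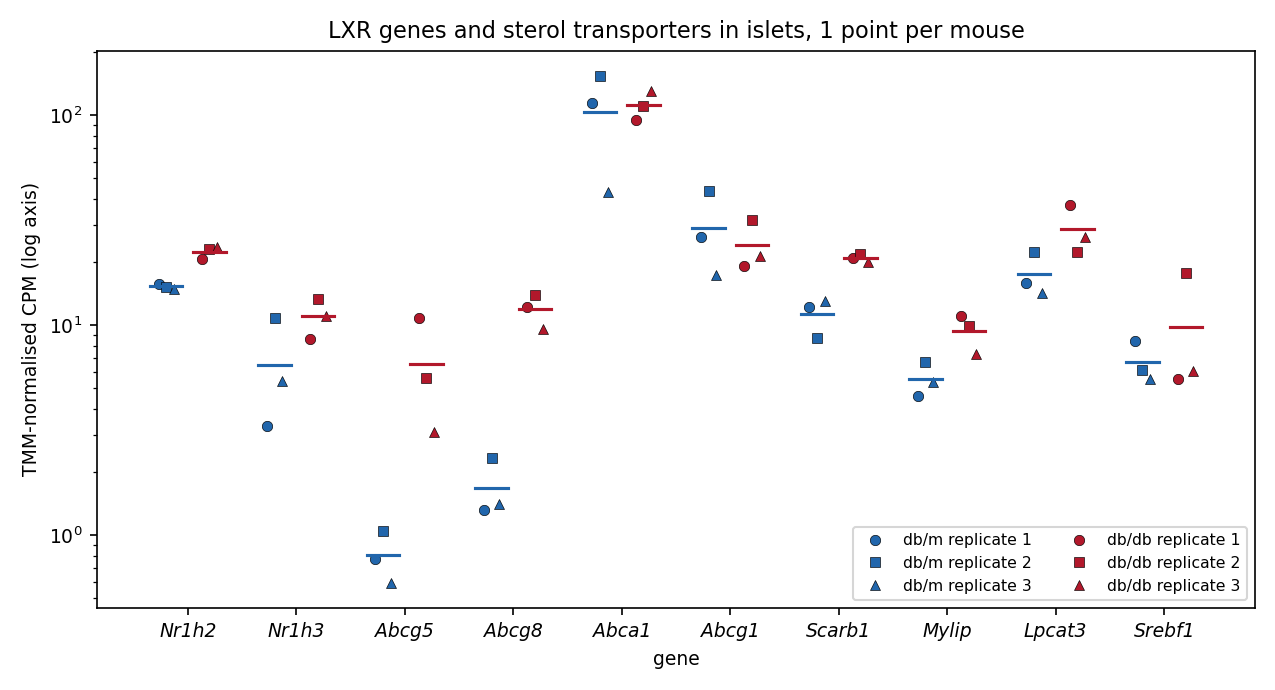
TMM-normalised CPM (log axis) of the 10 genes in islets of 3 db/m mice (blue) and 3 db/db mice (red), with 1 point per mouse, the marker shape giving the replicate number and the line the group mean. Abcg5 and Abcg8 had group means of 0.805 and 1.69 CPM in db/m mice and 6.52 and 11.9 CPM in db/db mice, and Abca1 and Abcg1 overlapped between the groups.

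Abcg8, one partner of the sterol exporter, lies on the forward strand of chromosome 17 (chr17:84676302-84700333). It had 152, 233 and 142 reads in db/db islets against 36, 40 and 26 in db/m islets. The levels were 12.2, 13.9 and 9.55 CPM in db/db mice and 1.32, 2.33 and 1.41 CPM in db/m mice. Every db/db mouse was above every db/m mouse, and the spread within each group was small beside the gap. The means were 11.9 ± 2.21 CPM (SD, n = 3) and 1.69 ± 0.559 CPM (SD, n = 3), and the log2 fold change was 2.83 (SE 0.33, 95% interval 2.09 to 3.56, adjusted p = 0.0103 from edgeR). It was the 13th gene of the tested genes by p. Abcg8 passed the threshold in 13 of 15 alternative settings, with log2 fold changes from 2.28 to 3.15. It did not pass without db/db replicate 2 (adjusted p = 0.0618 from edgeR) or with library size alone (adjusted p = 0.112 from edgeR).

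Abcg5, the other partner, lies on the reverse strand (chr17:84658174-84683011). It had 135, 94 and 46 reads in db/db islets against 21, 18 and 11 in db/m islets, which corresponds to 10.8, 5.62 and 3.09 CPM and to 0.771, 1.05 and 0.596 CPM. The groups did not overlap, but the db/db mice differed among themselves, with db/db replicate 1 highest and db/db replicate 3 lowest. The log2 fold change was 3.01 (SE 0.52, 95% interval 1.84 to 4.17, adjusted p = 0.0453 from edgeR), close to the threshold. It passed in 5 of 15 alternative settings and in none of the 6 that left out a mouse, where the log2 fold change was between 2.44 and 3.35 and the adjusted p from edgeR between 0.0548 and 0.163. With an acinar score covariate the log2 fold change was 2.43 for Abcg5 (adjusted p = 0.25 from edgeR) and 2.69 for Abcg8 (adjusted p = 0.0412 from edgeR). The acinar share was highest in db/db replicate 1, which was also the highest mouse for Abcg5 but not for Abcg8. It was lowest in db/m replicate 1, which was the lowest mouse for Abcg8 but not for Abcg5. A link of either gene to the acinar share was not tested.

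Abcg5 and Abcg8 stand head to head. The RefSeq start of Abcg5 and the start of 2 of the 3 curated Abcg8 transcripts are separated by 109 bases, so that their promoter windows overlap. The remaining Abcg8 transcript starts inside Abcg5, on the other strand, 6708 bases from the Abcg5 start, and the exons of the 2 genes share 40 bases, 1.07% of the exonic bases of Abcg8 and 1.66% of those of Abcg5. Whether the counting used strand is not given in the sources used here, so that reads on these shared bases cannot be assigned to one gene. The number of Abcg8 reads per Abcg5 read was 1.13, 2.48 and 3.09 in db/db mice and 1.71, 2.22 and 2.36 in db/m mice, and these ratios overlapped between the groups. Both genes are known for their expression in liver and intestine. Of the 6 enterocyte markers, Fabp2, Alpi, Sis and Apoa4 had 0 counts in every library and Lct had 1 count in db/db replicate 2 and 0 elsewhere. The remaining one, Vil1, had 25, 95 and 60 counts in db/db mice against 573, 116 and 109 in db/m mice, all db/db mice below all db/m mice in CPM (log2 fold change -1.52, unadjusted p = 0.0213 and adjusted p = 0.243 from edgeR). The summed level of the list, nearly all of it Vil1, was 2.01 to 5.74 CPM in db/db mice and 5.90 to 21.0 CPM in db/m mice. The 6 hepatocyte markers summed to 0.837 to 2.25 CPM in db/db mice and 1.54 to 4.95 CPM in db/m mice. Among them Fga had 0 counts in every library, Alb had 4 to 23 counts in db/db mice and 15 to 51 in db/m mice, and Cyp2e1 had 67 counts in db/m replicate 2 and 1 to 9 in the other mice.

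The genes with the pattern most like that of Abcg8 over the 6 mice were Prss1, Scn4b, Naip6, Sphk1 and Scd1, among 11558 tested genes with a mean of at least 1 CPM. Likeness was the root mean square difference of log2(CPM + 0.5), centred for each gene, which was 0.352 for Prss1, 0.375 for Scn4b, 0.389 for Naip6, 0.394 for Sphk1 and 0.418 for Scd1, and 0.435 for Abcg5. Prss1 is a trypsinogen gene of acinar cells, Scn4b a sodium channel subunit, Sphk1 a sphingosine kinase and Scd1 a fatty acid desaturase. Naip6 had 51 to 68 reads in db/db mice and 0 in every db/m mouse. Its fitted log2 fold change was 9.13, against 2.83 for Abcg8. The likeness of Naip6 depends on the 0.5 added to each CPM, which limits the size of a change from 0. Prss1 and Naip6 belong to families of near-identical genes, and their counts are uncertain.

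Abca1 and Abcg1, the best known LXR targets among cholesterol exporters, were not called. Abca1 (chr4:53030789-53159988) had 94.7, 110.0 and 130.9 CPM in db/db mice and 114.2, 153.5 and 42.9 CPM in db/m mice. The db/m mice held both the highest and the lowest value. Its log2 fold change was 0.11 (95% interval -0.82 to 1.05, adjusted p = 0.916 from edgeR), and it was between -0.24 and 0.54 when a mouse was left out. Abcg1 (chr17:31057694-31117984) had 19.2, 31.8 and 21.3 CPM in db/db mice and 26.2, 43.6 and 17.3 CPM in db/m mice, which overlapped in the same way. Its log2 fold change was -0.27 (95% interval -1.07 to 0.54, adjusted p = 0.761 from edgeR), and 0.18 without db/m replicate 2. The intervals of both genes end below those of Abcg5 and Abcg8, as the plot of fold changes shows. A difference between genes was not tested.

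**Figure D2:**
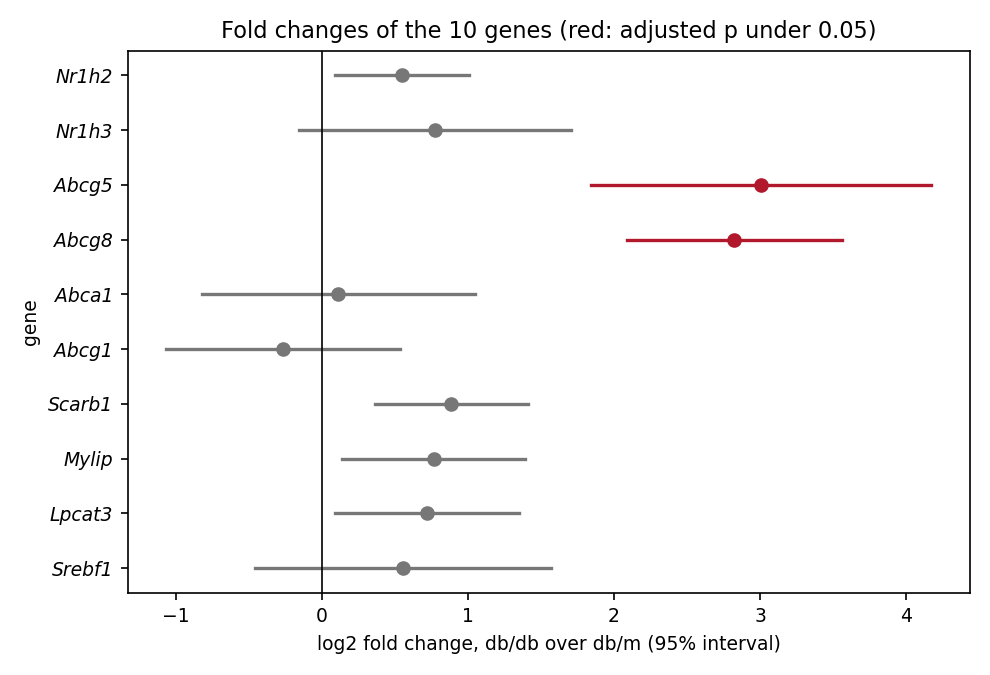
Log2 fold change of each gene in db/db over db/m islets (point) with its 95% interval (line), from edgeR, and the vertical line marking no change. The intervals of Abcg5 (1.84 to 4.17) and Abcg8 (2.09 to 3.56), in red, lie to the right of all others, while those of Nr1h3, Abca1, Abcg1 and Srebf1 include 0.

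Both genes are strongly expressed in macrophages. The 7 macrophage and leukocyte markers in the table summed to 55.6, 16.0 and 67.7 CPM in db/db mice and 45.5, 13.4 and 4.22 CPM in db/m mice. Lyz2 alone took 49.5, 9.15 and 39.3 CPM of these sums in db/db mice and 16.5, 4.43 and 0.704 CPM in db/m mice. In db/m replicate 2, Cd79a took 5.13 CPM. The log2 fold changes differed in sign. They were 2.16 for Lyz2, 1.53 for Cd3e, 0.75 for Itgam, 0.65 for Ptprc, -0.548 for Csf1r, -0.595 for Cd68 and -2.57 for Cd79a. The lowest sum was in db/m replicate 3, which was also the lowest mouse for Abca1 and Abcg1, whereas db/m replicate 2, the highest for both, had the next lowest sum among db/m mice. The part of these cells in the values was not tested.

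The receptor genes had higher means in db/db islets and neither passed the threshold. Nr1h2 (LXRβ, chr7:44549616-44553968) had 20.6, 23.0 and 23.5 CPM in db/db mice and 15.8, 15.3 and 14.9 CPM in db/m mice. The groups did not overlap and the replicates were close to one another. The means were 22.4 ± 1.53 CPM (SD, n = 3) and 15.3 ± 0.429 CPM (SD, n = 3), and the log2 fold change was 0.55 (SE 0.20, unadjusted p = 0.024 and adjusted p = 0.253 from edgeR). With library size alone it was -0.03, which was 0.55 above the median of all genes in that setting. Nr1h3 (LXRα, chr2:91184061-91202829) had 8.59, 13.4 and 11.1 CPM in db/db mice and 3.30, 10.8 and 5.41 CPM in db/m mice. Only db/m replicate 2 reached the db/db range. The log2 fold change of Nr1h3 was 0.77 (95% interval -0.16 to 1.70, adjusted p = 0.422 from edgeR), and 1.38 without db/m replicate 2 against 0.47 without db/m replicate 1. The number of Nr1h2 reads per Nr1h3 read was 2.40, 1.72 and 2.12 in db/db mice and 4.77, 1.42 and 2.75 in db/m mice, so that the db/m mice varied more than the groups differed.

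Scarb1 encodes SR-BI, the receptor that exchanges cholesterol with high-density lipoprotein (chr5:125277087-125341094). It had 21.0, 21.9 and 19.9 CPM in db/db mice and 12.2, 8.74 and 13.1 CPM in db/m mice. The db/db mice were nearly equal and all lay above the db/m mice. The means were 20.9 ± 0.99 CPM (SD, n = 3) and 11.3 ± 2.28 CPM (SD, n = 3), with a log2 fold change of 0.89 (SE 0.23, unadjusted p = 0.00402 and adjusted p = 0.12 from edgeR). It was the closest to the threshold of the 8 genes that missed it, and DESeq2 gave an adjusted p of 0.0208. Without 1 mouse the log2 fold change was between 0.76 and 1.01.

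Mylip encodes IDOL, a ubiquitin ligase by which LXR limits lipoprotein uptake (chr13:45389742-45411940). Its levels were 11.1, 9.93 and 7.26 CPM in db/db mice and 4.59, 6.70 and 5.36 CPM in db/m mice. The lowest db/db mouse was just above the highest db/m mouse. The log2 fold change was 0.77 (SE 0.28, unadjusted p = 0.0219 and adjusted p = 0.245 from edgeR), and 0.50 with an acinar score covariate.

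Lpcat3 encodes the enzyme that places polyunsaturated fatty acids in membrane phospholipids (chr6:124663094-124704716). It had 37.4, 22.4 and 26.4 CPM in db/db mice and 15.9, 22.3 and 14.2 CPM in db/m mice. The groups were separated only by the small gap between db/db replicate 2 and db/m replicate 2. The log2 fold change was 0.72 (SE 0.28, unadjusted p = 0.0297 and adjusted p = 0.273 from edgeR), 0.49 without db/db replicate 1 and 0.42 with an acinar score covariate. Of its exonic bases, 11.3% overlap Emg1 on the other strand.

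Srebf1 encodes SREBP-1, the transcription factor through which LXR drives fatty acid synthesis (chr11:60199084-60224186). Its levels were 5.54, 17.8 and 6.05 CPM in db/db mice and 8.41, 6.12 and 5.52 CPM in db/m mice. One mouse, db/db replicate 2, was far above the others, and the remaining db/db mice lay within the db/m range. The log2 fold change of 0.56 (95% interval -0.46 to 1.57, adjusted p = 0.593 from edgeR) became -0.20 without that mouse and 1.25 with an acinar score covariate. The deposited counts do not part the transcripts of the 3 starts of Srebf1. The plot of fold changes by setting gives all 10 genes.

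**Figure D3:**
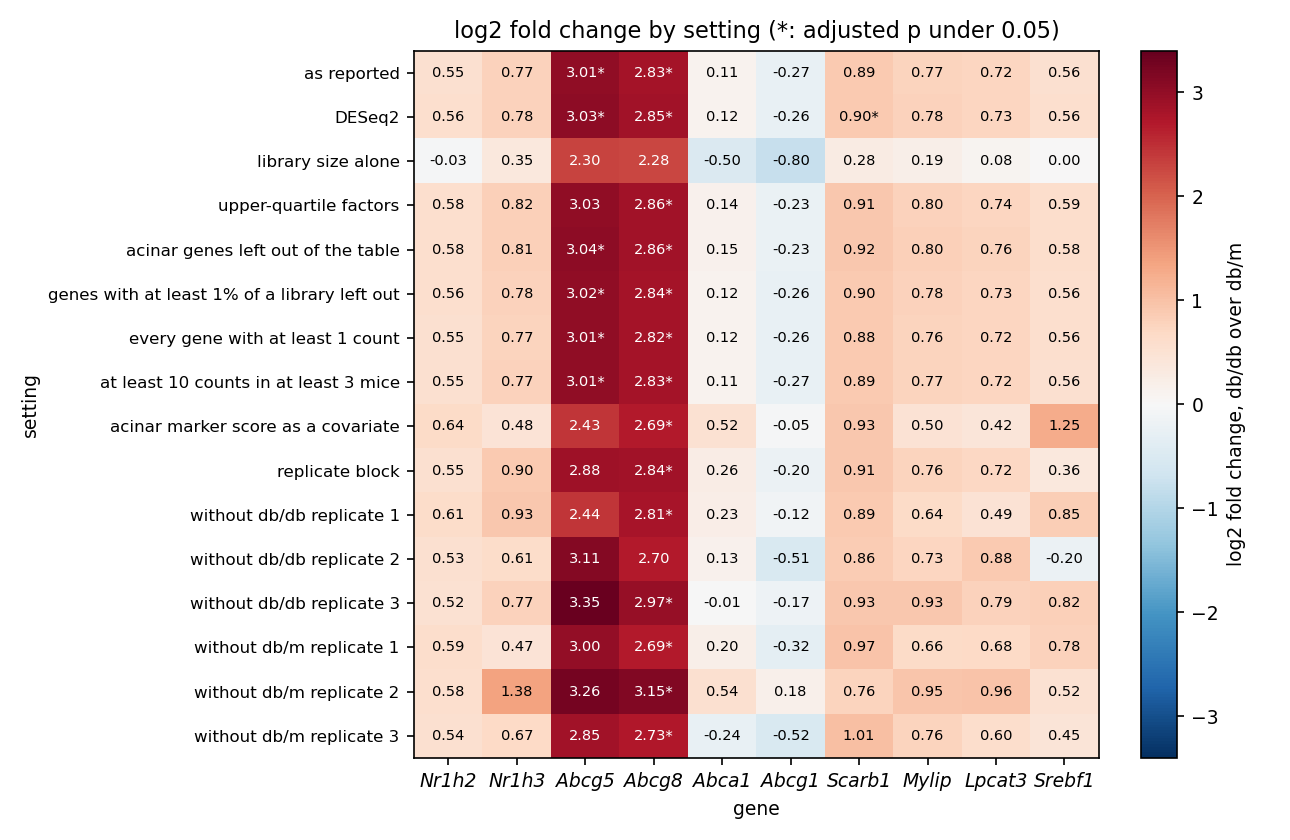
Log2 fold change of each gene (columns) as reported and under 15 other settings of the analysis (rows), with colour and printed number both giving the log2 fold change and a star marking an adjusted p under 0.05. Abcg8 carries a star in 13 of the 15 alternatives and Abcg5 in 5, Scarb1 carries one with DESeq2, and Abca1, Abcg1, Nr1h2 and Srebf1 are the genes whose sign changes in at least 1 row.

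Levels were compared between genes after division by the pooled exonic bases of all RefSeq transcripts of a gene, as CPM per kb. This pooled length can exceed that of any single transcript. The order is therefore approximate, and genes with several transcripts, such as Srebf1 (7) and Abcg8 (4), can be placed too low. In db/m mice Abca1 (9.84 ± 5.33, SD, n = 3), Lpcat3 (6.79 ± 1.65, SD, n = 3) and Nr1h2 (6.69 ± 0.189, SD, n = 3) had the highest means, followed by Abcg1, Nr1h3, Scarb1, Mylip and Srebf1. Abcg8 (0.45 ± 0.149, SD, n = 3) and Abcg5 (0.334 ± 0.0946, SD, n = 3) were the lowest, with ranges of 0.352 to 0.621 and 0.247 to 0.435 that overlapped each other and lay below those of all other genes. Neighbours in this order overlapped, except Mylip with Srebf1 and Srebf1 with Abcg8. In db/db mice Lpcat3 (11.2 ± 3.03, SD, n = 3), Abca1 and Nr1h2 led, and a gap was present only between Nr1h2 and Nr1h3. Abcg8 (3.17 ± 0.589, SD, n = 3) and Abcg5 (2.7 ± 1.64, SD, n = 3) then overlapped Mylip and Abcg1, and Srebf1 had the lowest mean. Among these genes the sterol exporter pair was thus at the bottom of the order in db/m islets and within the range of other members in db/db islets.

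Other genes of the pathway were taken from 5 lists of 76 genes, of which 53 were tested. Of these, 1 was higher at an adjusted p under 0.05 (against 0.133% of all tested genes) and 0 were lower (against 0.486%). The median log2 fold change of the 53 genes was -0.04. At an unadjusted p under 0.05, 6 were higher (against 5.04% of all tested genes) and 4 lower (against 9.89%).

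Of 15 tested partners and coregulators of LXR, 0 passed the threshold and 2 had an unadjusted p under 0.05 (against 14.9% of all tested genes). The median log2 fold change of the 15 was 0.02. Rxrb, which encodes a retinoid X receptor that pairs with LXR, had 19.8, 19.8 and 28.4 CPM in db/db mice and 10.6, 17.4 and 11.6 CPM in db/m mice. The groups of Rxrb did not overlap (log2 fold change 0.78, unadjusted p = 0.019 and adjusted p = 0.232 from edgeR). Nrip1, a corepressor of nuclear receptors, had a log2 fold change of 0.52 (unadjusted p = 0.0461 and adjusted p = 0.324 from edgeR). Rxrg had 1 count in all libraries together and was not tested. Of 7 tested enzymes that make or remove oxysterols and other sterol ligands, 0 had an unadjusted p under 0.05. The share over all tested genes was 14.9%. Ch25h, which makes an LXR ligand, had 6 counts in db/db replicate 3, 9 in db/m replicate 1 and 0 in the other mice.

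Of 12 tested other LXR targets, Scd1 was higher at an adjusted p under 0.05, against 0.133% of all tested genes. Mlxipl (lower) and Arl4c (higher) had an unadjusted p under 0.05, against 9.89% of all tested genes lower and 5.04% higher. Scd1, which makes monounsaturated fatty acids, had 114.0, 133.6 and 89.2 CPM in db/db mice and 28.6, 38.2 and 34.1 CPM in db/m mice. The fitted log2 fold change was 1.74 (SE 0.26, adjusted p = 0.0246 from edgeR). Without a mouse it was between 1.602 and 1.888, and Scd1 passed the threshold in 1 of these 6 fits, that without db/m replicate 3 (adjusted p = 0.0341 from edgeR, and up to 0.128 in the others). It did not pass with library size alone (adjusted p = 0.171 from edgeR) or with an acinar score covariate (adjusted p = 0.0776 from edgeR). Mlxipl, which encodes the glucose-sensing factor ChREBP, had 6.50, 15.8 and 14.5 CPM in db/db mice and 64.3, 53.0 and 25.4 CPM in db/m mice (log2 fold change -1.95, adjusted p = 0.0819 from edgeR). Arl4c, a small GTPase of cholesterol transport, had a log2 fold change of 1.59 (adjusted p = 0.296 from edgeR) and overlapped between the groups, with db/db replicate 1 lowest. Fasn, Lpl and Apoe had log2 fold changes of -0.15, 0.11 and 0.74 (adjusted p = 0.822, 0.907 and 0.493 from edgeR), and were named after their values were seen. The 8 targets that were not tested included Cyp7a1 and Apoc2, each with 0 counts in every library.

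Of 11 tested other genes of sterol uptake and lipoproteins, 0 passed the threshold. At an unadjusted p under 0.05 there were 2 higher (against 5.04% of all tested genes) and 2 lower (against 9.89%). Lcat, which esterifies cholesterol on lipoproteins, had 50.9, 19.1 and 35.6 CPM in db/db mice and 3.49, 10.9 and 6.23 CPM in db/m mice (log2 fold change 2.36, adjusted p = 0.0654 from edgeR). Stard3, a sterol carrier of late endosomes, had a log2 fold change of 0.68 (unadjusted p = 0.0155 and adjusted p = 0.214 from edgeR).

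Among 8 tested other members of the ABCA and ABCG families, 0 passed the threshold. Only 1 of them, Abca8b, had an unadjusted p under 0.05 (against 14.9% of all tested genes). The log2 fold change was negative for 7 of the 8, against 6389 of 12760 tested genes, and their median was -0.54. Abca8b had 0.321, 0.658 and 0.740 CPM in db/db mice and 4.40, 3.26 and 1.73 CPM in db/m mice (log2 fold change -2.43, adjusted p = 0.0866 from edgeR). Abcg2, another ABCG transporter, had 5 to 18 counts in db/db mice and 18 to 33 in db/m mice. In CPM it had 0.401, 0.478 and 1.21 in db/db mice and 1.21, 1.05 and 1.25 in db/m mice, which overlapped. Its log2 fold change was -0.74 (unadjusted p = 0.234 and adjusted p = 0.58 from edgeR). Abcg2, Rxrg, Ch25h, Cyp7a1 and Apoc2 were named after their values were seen. The plot of the lists sets these genes beside the 10.

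**Figure D4:**
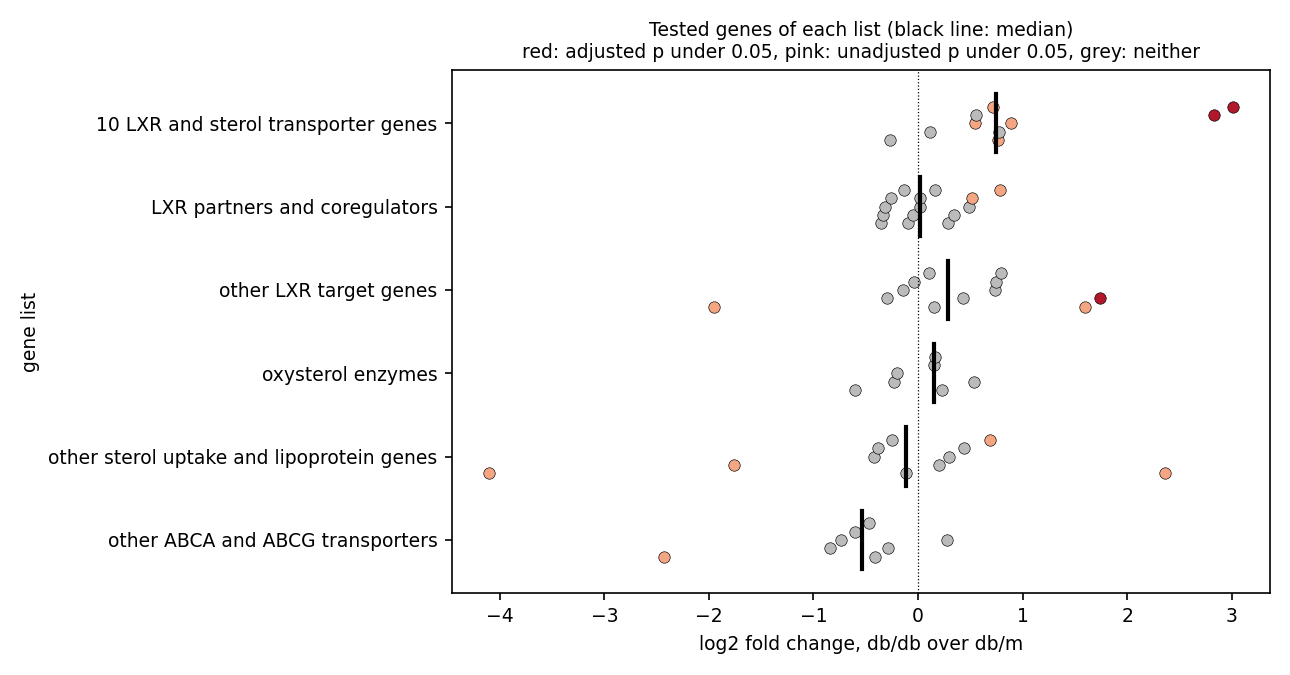
Log2 fold change of each tested gene (point) in the 10 genes and in 5 lists of related genes, with the list median as a black line and colours giving the adjusted and unadjusted p. Abcg5 and Abcg8 lie at 3.01 and 2.83, Scd1 is the one called gene of the other lists at 1.74, and the medians of the other lists lie between -0.54 and 0.29.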

How the data were processed

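The authors depleted rRNA, sequenced on a HiSeq instrument, trimmed reads and mapped them to mm10. The study's methods name TopHat, whereas the submitters' processing notes name HISAT2 2.0.4. The deposited values are raw read counts, 1 row per gene symbol and 1 column per mouse, not normalized. The counting program, annotation and strand setting are not given in the sources used here. A count of 3 reads corresponded to 0.146 to 0.192 CPM.

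The counts were filtered (filterByExpr), scaled (TMM) and fitted by the quasi-likelihood method of edgeR 4.0.16 under R 4.3.3, with db/db against db/m as the only term and with Benjamini-Hochberg adjustment over 12760 genes, threshold 0.05. The SE was obtained from the size of the log2 fold change over √F, and the 95% interval from it and the t quantile. Sequences and positions came from RefSeq GRCm38.p6. Named genes were the 10 members, and of each list those with an adjusted p under 0.05 and the 3 smallest p among those under 0.05 unadjusted. The members and lists were chosen with earlier results of these data known. Some genes of the lists are not reported here.

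The alternatives were DESeq2 1.42.0, library size, upper-quartile factors, leaving out the acinar genes or those with at least 1% of a library, other filters (at least 1 count, or at least 10 counts in 3 mice), the acinar score (mean log2(CPM + 1)) as a covariate, a replicate block, and leaving out each mouse. On simulated data for db/db against db/m with 200 of 12483 genes changed by 3 on the log2 scale, edgeR recovered 180 with 13 false calls, and DESeq2 185 with 47. With 0 of 12450 genes changed, edgeR made 0 false calls and DESeq2 4. The changed genes were drawn above a minimum expected count, and the simulated libraries held no shift in acinar share. These rates need not hold for the real libraries or for genes with few reads.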

Additional observations from a re-analysis of the deposited data

How the results depend on the processing

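The number of the 10 genes at an adjusted p under 0.05 was 2 as reported. It was 3 with DESeq2 (Scarb1 in addition), 0 with library size alone, 1 with upper-quartile factors (Abcg8), 1 with an acinar score covariate and 1 with the replicate block, and 0 to 1 when a mouse was left out. The number at an unadjusted p under 0.05 was 6, and 2 with library size alone, where the median of all genes was -0.59, and 4 to 7 without a mouse. For the companion lists the count of 1 became 5 with DESeq2, 6 when all genes with any count were kept, 0 with library size alone, with the acinar marker score and with the replicate block, and 0 to 4 without a mouse. Over all genes, 79 were called as reported, 707 with DESeq2, 888 when all genes with any count were kept, 52 with upper-quartile factors, 44 with the acinar marker score, 21 with library size alone and 16 with the replicate block. Without a mouse the number was between 10 and 333. The sign turned for Abca1 with library size alone (-0.50), without db/db replicate 3 (-0.005) and without db/m replicate 3 (-0.24), for Abcg1 without db/m replicate 2 (0.18), for Nr1h2 with library size alone (-0.034) and for Srebf1 without db/db replicate 2 (-0.20), none of them called. Over the 6 fits without a mouse, the log2 fold change spanned -0.24 to 0.535 for Abca1, -0.518 to 0.176 for Abcg1 and -0.20 to 0.846 for Srebf1. The cause was not tested. Deviations of mice with the same replicate number had a mean correlation of -0.33 across genes, against 0.16 for the other pairs. So few mice cannot decide whether the number marks a shared batch. With the replicate block, Abcg5 had an adjusted p of 0.122, Abcg8 of 0.0465 and Scd1 of 0.147 from edgeR. The acinar share differed by 10.3 percentage points, by 0.697 without genes at 1% or more of a library, and by 5.49 to 13.4 without a mouse. The acinar list without those genes took only 2.25% to 2.39% of the counts in db/db mice and 1.21% to 1.85% in db/m mice. With 3 mice a group, single genes such as Abcg5, with 11 to 21 reads in db/m mice, are limited by spread between mice as well as by depth.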

Other observations

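Vldlr, a lipoprotein receptor, had a log2 fold change of 0.30 (adjusted p = 0.625 from edgeR), and was named after its values were seen. Lrp8, another lipoprotein receptor, had 42 counts in db/m replicate 1 and at most 4 in each other mouse, and was not tested.

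Acaca and Tbl1xr1, which most cells express, had 0 to 8 and 2 to 5 counts in the libraries. How the counting treated overlapping or duplicated gene models is not given in the sources used here.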
